A study of Mus musculus with 16 samples.

Results

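A set of 8 genes of dietary sugar handling was followed in the ileum, picked out by gene symbol: *Sis*, *Lct*, *Mgam*, *Treh*, *Slc5a1*, *Slc2a2*, *Slc2a5* and *Khk*, or 8 of the 24940 genes counted. The ileum came from 16 C57BL/6 mice, with 4 WT and 4 LKO animals of each sex. WT mice were Bcl6 fl/fl, with loxP sites around part of *Bcl6*, the gene of a transcriptional repressor, and LKO mice were Alb-cre, Bcl6 fl/fl, in which Cre driven by the albumin promoter removes *Bcl6* from hepatocytes. The floxed allele was therefore shared by all 4 groups, *Bcl6* stayed intact in the ileum by design, and ages and the feeding state at collection were not given per animal in the sources used here. Poly(A) RNA was sequenced from 1 cm of ileum next to the cecum, so each library mixes epithelium with muscle, lymphoid tissue and all other cells of the wall.

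Carbohydrate is digested to single sugars at the brush border, the apical membrane of the enterocyte. Membrane-bound disaccharidases cut sucrose, starch fragments, lactose and trehalose, and the sugars then enter through SGLT1 (*Slc5a1*), which carries glucose and galactose with sodium, or GLUT5 (*Slc2a5*), which carries fructose. GLUT2 (*Slc2a2*) is the exit route across the basolateral membrane, and ketohexokinase (*Khk*) traps fructose as fructose 1-phosphate. These genes are known for high expression in the proximal small intestine, and lactase is known to decline after weaning.

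Several facts of the libraries touch the values below. *Bcl6* itself, deleted in hepatocytes only, was read in the ileum at 14.0 to 17.9 CPM in male WT, 17.2 to 21.9 in male LKO, 9.24 to 15.1 in female WT and 15.2 to 26.1 in female LKO, so these libraries do not check the hepatic deletion. Total counts were 15739601 to 20467119 in 15 libraries and 60324336 in female LKO replicate 1, so 3 counts, the limit that a count of 0 allows, equalled 0.0485 to 0.191 CPM (counts scaled to library size, here with TMM factors), for counting error only. The ileal markers *Fabp6*, a bile acid-binding protein, and *Slc10a2*, the apical bile acid transporter, were high in every library (*Fabp6* 2692 to 5425 CPM, *Slc10a2* 426 to 816 CPM), while the duodenal protease *Tmprss15* and the pancreatic *Prss1* had 0 counts in all 16. Other proximal small intestine markers were present, and the 11 of that list summed to 780.2 to 1399.96 CPM in male WT, 803 to 1036 in male LKO, 390.1 to 620.5 in female WT and 500.2 to 1108 in female LKO, where replicates 2 and 3 (1108 and 1059 CPM) stood above the other 2 animals. They also did so for *Sis*, *Treh*, *Slc5a1*, *Slc2a5* and *Khk*, but not for *Mgam*, *Slc2a2* or *Lct*. Of the 9 proximal markers tested over all libraries, 0 passed for genotype and 1 was lower in males (*Fabp1*, log2 -1.24), where 5.44% of all genes were. The summed level of 8 B cell follicle markers was 68.4 to 355 CPM in 4 libraries (male WT replicate 2, female WT replicate 3, female LKO replicates 2 and 3) and 19.2 to 29.4 CPM in the other 12. *Car1*, a carbonic anhydrase of the large bowel, was 259 to 1155 CPM in 5 libraries (male WT replicates 3 and 4, male LKO replicate 2, female WT replicates 1 and 4) and at most 47.2 CPM elsewhere.

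The promoters are shown first because the genes differ widely in base composition although most of them varied together between animals, as described further on. RefSeq promoters (GRCm38.p6, the assembly of mm10) were matched for 8 of the 8 genes, and the 250 bases before the annotated start were read. A set of 6 motifs was searched on both strands, and the capitals mark where they match. The half-site of HNF1, a hepatocyte and gut factor, was searched as GTTAAT. The motif of the intestinal factor CDX2 was searched as CAATAAA. The motif of GATA factors was searched as AGATAA. The motif of HNF4, a regulator of enterocyte genes, was searched as CAAAGTNCA. The E-box, which is its own reverse complement, was searched as CACGTG. The TATA box was searched as TATAAA. The TATA box and CDX2 motifs share letters and may overlap, as may a TATA box with its own reverse. The promoters of *Sis* (chr3:72967864-72968113, minus strand), *Mgam* (chr6:40628581-40628830, plus), *Treh* (chr9:44672983-44673232, plus), *Slc5a1* (chr5:33103969-33104218, plus) and *Khk* (chr5:30921309-30921558, plus) are printed 5′ to 3′ along each gene.
Sis: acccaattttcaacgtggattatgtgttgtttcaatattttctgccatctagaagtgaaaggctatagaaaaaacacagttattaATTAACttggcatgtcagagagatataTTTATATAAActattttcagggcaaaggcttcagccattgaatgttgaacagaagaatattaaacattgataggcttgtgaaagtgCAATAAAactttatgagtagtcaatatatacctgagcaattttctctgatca
Mgam: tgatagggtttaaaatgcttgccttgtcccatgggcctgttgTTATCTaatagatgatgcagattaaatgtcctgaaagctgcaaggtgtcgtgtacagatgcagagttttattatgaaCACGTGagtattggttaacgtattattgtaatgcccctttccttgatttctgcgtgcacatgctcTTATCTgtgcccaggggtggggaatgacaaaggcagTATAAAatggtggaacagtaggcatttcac
Treh: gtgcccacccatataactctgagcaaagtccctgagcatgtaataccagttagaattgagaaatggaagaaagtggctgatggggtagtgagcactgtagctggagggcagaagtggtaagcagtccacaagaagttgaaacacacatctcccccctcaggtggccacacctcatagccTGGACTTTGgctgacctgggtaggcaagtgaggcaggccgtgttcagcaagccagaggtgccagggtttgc
Slc5a1: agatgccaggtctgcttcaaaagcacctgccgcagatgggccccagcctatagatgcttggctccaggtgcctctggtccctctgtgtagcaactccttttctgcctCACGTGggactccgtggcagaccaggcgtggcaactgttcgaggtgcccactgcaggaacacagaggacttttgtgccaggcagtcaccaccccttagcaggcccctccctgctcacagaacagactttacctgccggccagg
Khk: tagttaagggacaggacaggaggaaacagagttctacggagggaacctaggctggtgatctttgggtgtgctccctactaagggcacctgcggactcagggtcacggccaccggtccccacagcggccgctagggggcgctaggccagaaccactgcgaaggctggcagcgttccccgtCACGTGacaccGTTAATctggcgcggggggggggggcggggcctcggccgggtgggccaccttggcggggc

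The *Sis* promoter was the most AT-rich, with 31.6% G and C, and only 2.16% of 32851 promoters had less. *Khk* and *Slc2a5* (not printed) lay at the other end, with 67.2% and 66.4%, against a median of 52.4%. The E-box was found in *Mgam*, *Slc5a1* and *Khk*, 3 of the 8 promoters, and in 6.02% of all. The HNF1 half-site was in *Sis* and *Khk* and in 6.43% of all. The CDX2 motif was in *Sis* alone of the 8 and in 4.2% of all, and the HNF4 motif in *Treh* alone and in 1.19% of all. GATA matches were in *Mgam* and *Lct* (9.99% of all), and TATAAA in *Sis* and *Mgam* (12.4% of all), in *Mgam* within the last stretch before the start. *Slc2a2* and *Slc2a5* held none of these letters in this window. A match is a description of the sequence only.

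*Slc5a1* was the most abundant member per length and *Lct* the least, over a range of several orders of magnitude. Levels are given here as CPM per kb of the exon length in the deposited table, mean ± SD over the 16 libraries. *Slc5a1* stood at 231 ± 28.4 CPM per kb (187 to 289), above 99.0% of all genes. *Mgam* (122 ± 22.4) and *Sis* (107 ± 24.8) followed with overlapping ranges, *Mgam* being higher in 11 of 16 libraries, so the order of these neighbours was not beyond their spread. *Khk* (43.8 ± 6.99) and *Treh* (32.9 ± 8.71) also had overlapping ranges, although *Khk* was the higher of the pair within each of the 16 libraries. *Slc2a5* was far lower, at 3.95 ± 1.07 CPM per kb, and *Slc2a2* (0.164 ± 0.158) and *Lct* (0.0416 ± 0.0277) were close to the detection limit with overlapping ranges. The fructose transporter sat 8.33-fold below trehalase and 24.1-fold above the basolateral *Slc2a2*.

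**Figure D1:**
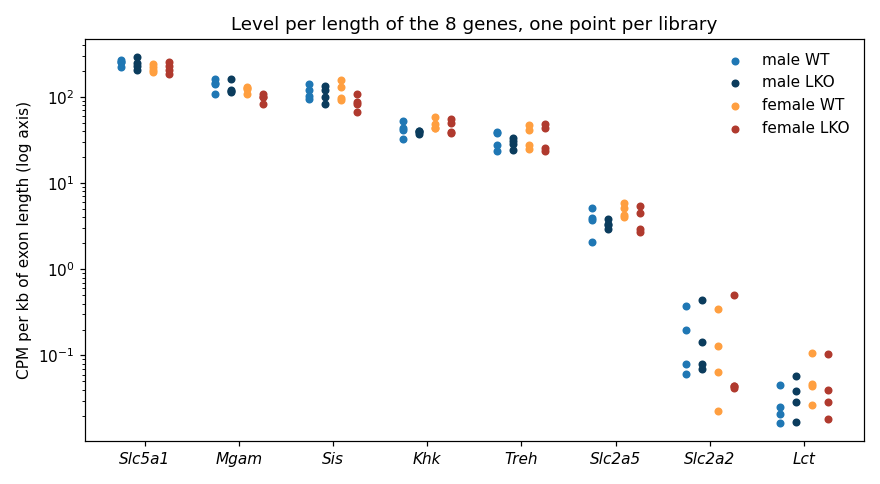
Level of each gene as CPM per kb of exon length (log axis), 1 point per library, coloured by group, genes ordered by their mean. The range of *Slc5a1* (187 to 289 CPM per kb) lies above that of every other gene, those of *Mgam* and *Sis* overlap, and *Slc2a2* and *Lct* lie below 1 CPM per kb in all 16 libraries.

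The main question was whether loss of hepatic *Bcl6* altered these ileal genes in either sex. None of the members passed an adjusted p of 0.05 in any comparison under edgeR's quasi-likelihood test. In males 0 of 6 members tested passed, where 0.0527% of 15169 genes did (8 genes). An unadjusted p below 0.05 was found for 0 of 6, against 5.29% of all genes. In females 0 of 6 passed, where 0.0392% of 15298 genes did (6 genes). An unadjusted p below 0.05 was found for 1 of 6, *Mgam*, against 11.7% of all genes, so 1 such member is not unusual. *Slc2a2* and *Lct* failed the filter on low counts within each sex, and *Lct* also failed it over all 16 libraries. Over both sexes 0 of 7 members passed for genotype (0.269% of 15598 genes), 0 of 7 for the genotype by sex interaction (0% of genes, with 879 genes at an unadjusted p below 0.05 and 0 called by DESeq2), and 0 of 7 for sex (11% of genes).

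The groups overlapped for each of the 6 members in both sexes, whereas 2.97% of all genes tested in males and 6.31% in females had groups without overlap. All 6 estimates were negative in males and 5 of 6 in females, with medians of -0.10 and -0.21 on the log2 scale, against -0.0020 and 0.0070 over all genes. The 6 values come from the same animals and moved together between them, so their shared sign is not independent evidence. Paneth cell markers moved with the genotype in males, where 3 of 5 were higher in LKO and 0 lower (*Itln1*, log2 0.66, *Lyz1*, 0.64, and *Mmp7*, 0.47), with summed levels of 7145 to 8668 CPM in WT and 11253 to 13277 CPM in LKO. Among all genes 0.0527% passed in males. In females 0 of 5 passed, with 4 of 5 estimates positive. For the interaction and for genotype averaged over the sexes 0 of 5 passed, so a difference between the sexes was not shown. Of 7 pan-epithelial markers 0 passed for genotype in either sex, and the part of cell composition in the members' values was not tested. In bulk tissue, fewer cells of a type and less RNA per cell cannot be told apart.

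**Figure D2:**
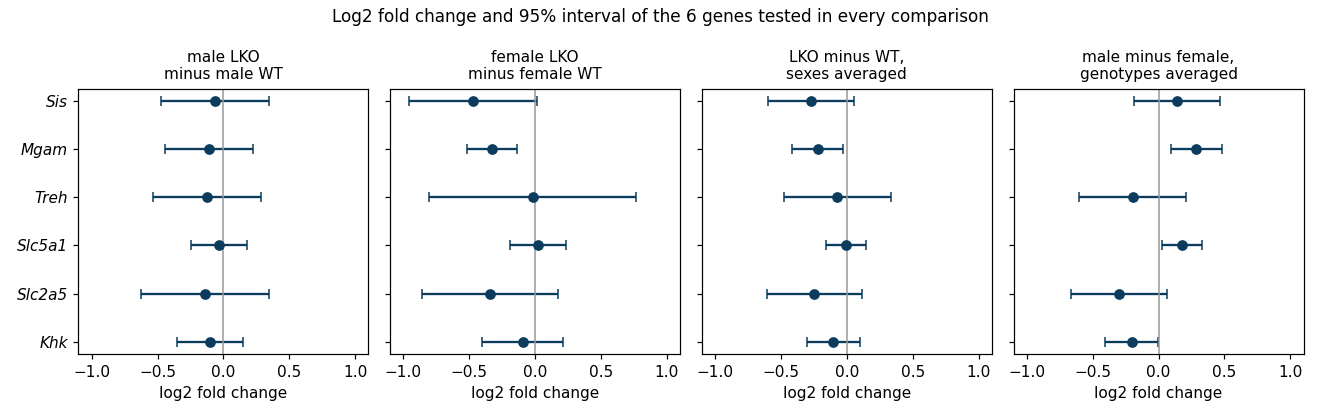
Log2 fold change (points) with its 95% interval from edgeR (bars) for the 6 genes tested in every comparison, in 4 panels: LKO minus WT in males, in females and averaged over the sexes, and male minus female. The intervals of *Mgam* in females and averaged over the sexes lie below 0, those of *Mgam* and *Slc5a1* for sex above 0 and that of *Khk* for sex below 0, and none of these passed after adjustment over all genes.

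*Sis* encodes sucrase-isomaltase, which cuts sucrose and the branches of starch (NM_001081137, chr3:72888557-72967863, minus strand, mm10). In males, *Sis* stood at 708, 834, 553 and 613 CPM in WT and 710.2, 482, 794 and 597 CPM in LKO (replicates 1 to 4 in order, here and below). In females it stood at 577, 549, 938 and 761 CPM in WT and 397, 641, 512 and 488 CPM in LKO. The highest of the 16 libraries was female WT replicate 3 and the lowest female LKO replicate 1, the deepest library. Group means were 706 ± 181 CPM in female WT and 509 ± 101 CPM in female LKO (SD over 4 animals), and the estimated genotype effect was -0.47 on the log2 scale (95% interval -0.96 to 0.013, SE 0.21), with an adjusted p of 0.434 under edgeR. In males the log2 fold change was -0.062 (-0.47 to 0.35, adjusted p 0.999). The difference between the sexes' genotype effects was 0.40 on the log2 scale (SE 0.29, adjusted p 0.864).

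*Mgam* encodes maltase-glucoamylase, which releases glucose from the ends of starch fragments (NM_001171003, chr6:40628831-40769123, plus strand). It was the member with the smallest p-value in females and between the sexes. Female values were 802, 696, 837 and 823 CPM in WT and 703, 634, 533 and 646 CPM in LKO. A single WT library, replicate 2, lay within the LKO range, and the other 3 lay above it. The means were 789.6 ± 64.0 CPM and 629 ± 70.5 CPM (SD over 4 animals). The estimated genotype effect was -0.33 on the log2 scale (SE 0.089, -0.52 to -0.13), with an unadjusted edgeR p of 0.00302 and an adjusted p of 0.246. Male values were 899, 1048, 934 and 696 CPM in WT and 759, 766, 1049.7 and 732 CPM in LKO. Male LKO replicate 3 stood apart from the other 3 LKO males, and the male log2 fold change was -0.11 (SE 0.15, adjusted p 0.999). Averaged over the sexes the genotype effect was -0.22 (SE 0.092, adjusted p 0.358), and the effects did not differ between the sexes past the threshold (interaction 0.21, SE 0.18, adjusted p 0.884).

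*Mgam* was also 1.22-fold higher in males than in females with the genotypes averaged (log2 0.29, SE 0.092), just outside the threshold with an adjusted p of 0.0528 under edgeR. This value crossed the threshold with DESeq2 (adjusted p 0.0183), with a non-robust dispersion (0.0473), without male WT replicate 4 (0.0173), without female WT replicate 3 (0.0491) and without the 5 libraries high in *Car1* (0.0492). Over all 29 alternatives its adjusted p ranged from 0.0173 to 0.491.

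*Treh* encodes trehalase, which cuts the fungal and insect sugar trehalose (NM_021481, chr9:44673233-44686305, plus strand). Among the abundant members it varied most between animals of a group, with a within-group SD of 0.402 on the log2 scale, larger than that of 93.8% of the 14423 genes with at least 1 CPM (median 0.148). Values were 79.0, 77.5, 56.4 and 47.3 CPM in male WT and 63.0, 57.0, 68.1 and 49.8 CPM in male LKO. Female values were 50.1, 56.9, 83.6 and 96.2 CPM in WT and 47.5, 98.3, 87.4 and 51.6 CPM in LKO. Each female group held a low pair and a high pair of animals, the high pair being replicates 3 and 4 in WT and replicates 2 and 3 in LKO. The log2 fold change was -0.12 (-0.53 to 0.29) in males and -0.017 (-0.80 to 0.77) in females, with adjusted p of 0.999 and 0.988 under edgeR. The wide female interval does not bound the genotype effect closely.

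*Lct* encodes lactase (NM_001081078, chr1:128284756-128328318, minus strand). It had 2 to 12 counts per library (0.101 to 0.658 CPM), and 7 of 16 libraries were at or below 3 counts. Its level in these ilea was close to the detection limit in all 4 groups, and no fold change is given.

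**Figure D3:**
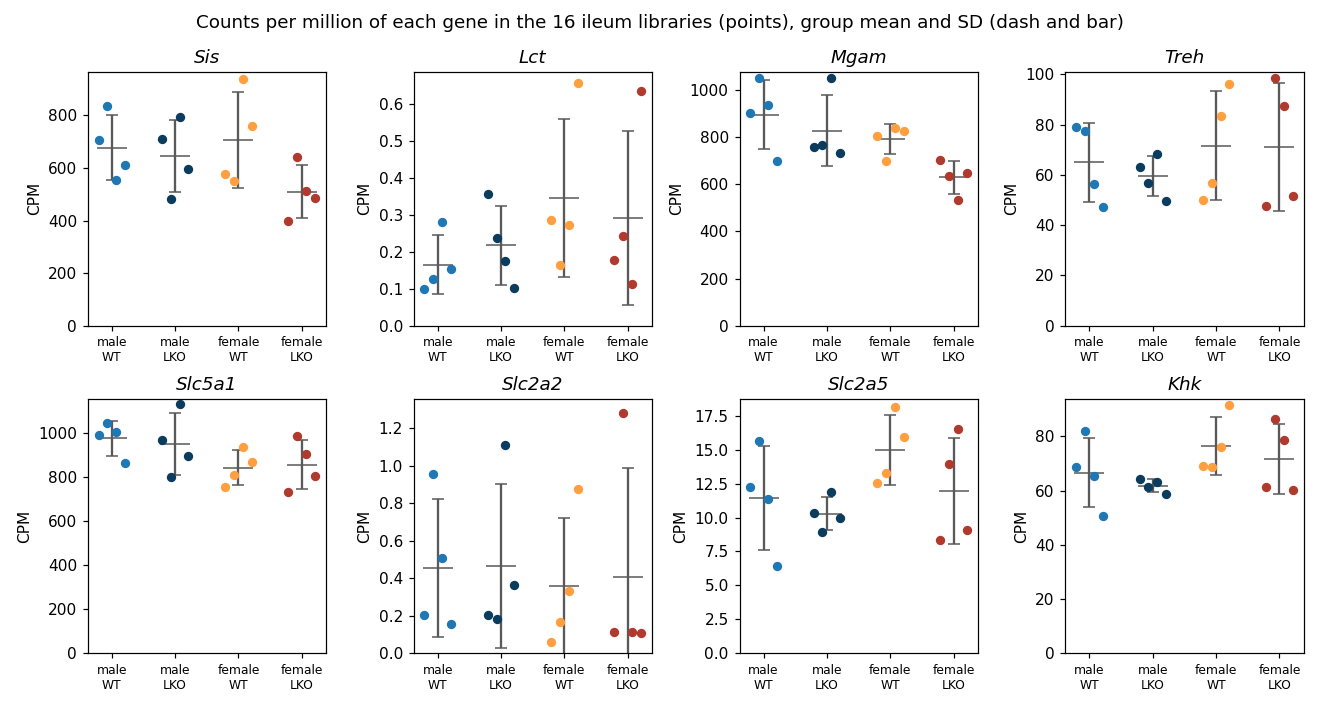
CPM of each of the 8 genes in the 16 libraries (points, 1 panel per gene with its own axis from 0), with the group mean (dash) and SD (bar, cut at 0 where it would run below). WT and LKO points overlap within each sex in every panel, and in females *Mgam* shows 3 WT animals above all 4 LKO animals.

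*Slc5a1* encodes SGLT1 (NM_019810, chr5:33104219-33162699, plus strand). It was the most even of the members between animals, with a within-group SD of 0.168. Male values were 989, 1043, 1005 and 861 CPM in WT and 966, 801, 1132 and 892 CPM in LKO. Female values were 752, 808, 937 and 869 CPM in WT and 731, 984, 904 and 805 CPM in LKO. The log2 fold change was -0.034 (-0.24 to 0.18) in males and 0.024 (-0.19 to 0.24) in females, and -0.0079 (-0.16 to 0.14, adjusted p 0.982) averaged over the sexes. This averaged interval is the tightest bound on a genotype effect among the members. Males were 1.13-fold higher (log2 0.18, SE 0.072), which did not pass (adjusted p 0.107). GENCODE M21 places the pseudogenes Gm15936 (same strand) and 5033423K11Rik (opposite strand) inside its interval.

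*Slc2a5* encodes the fructose transporter GLUT5 (NM_019741, chr4:150119344-150144168, plus strand). Male values were 12.3, 15.7, 11.4 and 6.42 CPM in WT and 10.3, 8.97, 11.9 and 9.99 CPM in LKO. Female values were 12.6, 13.3, 18.2 and 15.96 CPM in WT and 8.32, 14.0, 16.5 and 9.09 CPM in LKO. Male WT replicate 4 was the lowest of all 16 libraries and female WT replicate 3 the highest. The log2 fold change was -0.14 (-0.62 to 0.35) in males and -0.34 (-0.86 to 0.18) in females, with adjusted p of 0.999 and 0.569. Averaged over the sexes it was -0.25 (SE 0.17, adjusted p 0.638), and the male minus female difference was -0.30 (SE 0.17, adjusted p 0.258).

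*Slc2a2* encodes GLUT2 (NM_031197, chr3:28697903-28728360, plus strand). It had 1 to 21 counts per library (0.0574 to 1.28 CPM), with 6 of 16 libraries at or below 3 counts. The counts were 4, 15, 9 and 3 in male WT, 4, 3, 19 and 7 in male LKO, 1, 3, 6 and 16 in female WT and 7, 21, 2 and 2 in female LKO. A single animal carried much of each group's total, namely male WT replicate 2, male LKO replicate 3, female WT replicate 4 and female LKO replicate 2. The genotype effect averaged over the sexes was -0.025 with an interval of -1.33 to 1.28 (adjusted p 0.991), which bounds a change of either sign only loosely. The within-group SD was 1.12 on the log2 scale. The male minus female difference was 0.37 (-0.98 to 1.73) and the interaction 0.20 (-2.60 to 3.01). The antisense gene 1700112D23Rik overlaps *Slc2a2*, and since the strand option of the counting was not stated, reads of the pair cannot be told apart.

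*Khk* encodes ketohexokinase, the first enzyme of fructose use (NM_001310524, chr5:30921559-30931248, plus strand). Its counts come from 1 transcript per gene, so the isoforms KHK-A and KHK-C are not separated. Male values were 68.7, 82.0, 65.2 and 50.7 CPM in WT and 64.3, 61.2, 63.1 and 58.7 CPM in LKO. Female values were 69.0, 68.8, 76.0 and 91.7 CPM in WT and 61.3, 86.4, 78.5 and 60.4 CPM in LKO. The 4 LKO males lay within a narrow band inside the WT range. The log2 fold change was -0.10 (-0.35 to 0.15) in males and -0.10 (-0.40 to 0.21) in females, with adjusted p of 0.999 and 0.807. The male minus female difference was -0.20 on the log2 scale (SE 0.095, edgeR adjusted p 0.165), which did not pass over all genes.

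Among the members, the strongest pattern was between animals of the same group. Each library was expressed as the deviation of its log2 CPM from its group mean. On this scale *Sis*, *Slc5a1*, *Treh*, *Slc2a5* and *Khk* varied together, with all 5 on the same side of 0 in 15 of the 16 libraries. These 5 are the genes that agreed, so that count is a description and carries no test. *Slc2a2* lay on the other side of 0 in male WT replicate 1 (-0.65), male LKO replicate 1 (-0.63) and female LKO replicate 3 (-0.67). *Mgam* followed the 5 less closely, on the other side in male LKO replicate 1, female WT replicate 1 and female LKO replicates 1, 3 and 4. Of 21 pairs among the 7 members that passed the filter, 15 passed a Benjamini-Hochberg adjusted permutation p of 0.05, by Pearson's r and by Spearman's rho alike (100000 permutations within groups, two-sided, n = 16). These 15 pairs are all those without *Mgam*, with r between 0.57 and 0.90, and none of the 6 pairs with *Mgam* passed (r 0.24 to 0.54). Of the 15, 5 involve *Slc2a2*, which had at most 21 counts in a library. The share of pairs of other genes that would pass this test was not computed. Out of 14422 genes, *Slc5a1* ranked 6 by r with *Sis*, *Khk* 15 by r with *Treh* and *Sis* 590 by r with *Khk*. Genes outside the set therefore varied more closely with these members than those partners did.

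The closest pair was trehalase with ketohexokinase. *Treh* and *Khk* had r = 0.90 (permutation p = 9.00e-05, adjusted 0.00115) and rho = 0.92 (p = 2.70e-04, adjusted 0.00283), and leaving out the 2 animals most extreme in *Treh* gave r = 0.87. The fructose transporter and the fructose kinase formed the second pair. *Slc2a5* and *Khk* had r = 0.87 (permutation p = 0.00431, adjusted 0.00876) and rho = 0.89 (p = 0.00201, adjusted 0.00597), and leaving out the 2 animals most extreme in *Slc2a5* gave r = 0.79. Sucrase-isomaltase varied most closely with the glucose transporter. *Sis* and *Slc5a1* had r = 0.85 (permutation p = 4.70e-04, adjusted 0.00329) and rho = 0.85 (p = 4.90e-04, adjusted 0.00343), and leaving out the 2 animals most extreme in *Sis* gave r = 0.81. Over the 15 pairs such trimmed r values were 0.56 to 0.87. Within the sexes, *Treh* and *Khk* had r = 0.84 in the 8 males and 0.95 in the 8 females, and *Sis* and *Slc5a1* 0.79 and 0.91. *Mgam* correlated with its 6 partners at 0.60 to 0.88 in males and -0.46 to 0.19 in females, for example with r = 0.86 in males and -0.24 in females against *Slc5a1*, and 0.84 and -0.46 against *Slc2a5*. That difference was not tested. The points of every pair share the same libraries, depth and scaling.

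**Figure D4:**
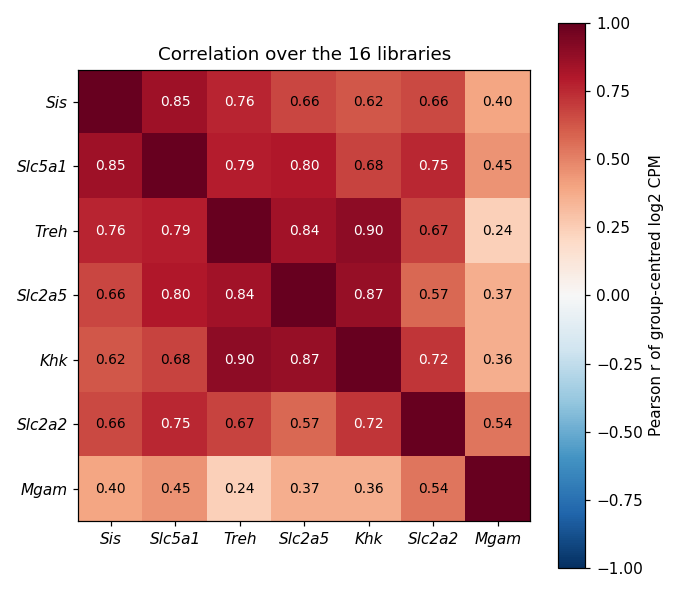
Pearson r between the 7 genes that passed the filter, over 16 libraries, of log2 CPM minus the group mean (colour scale from -1 to 1, value in each cell). All 21 values are positive, from 0.24 (*Mgam* and *Treh*) to 0.90 (*Treh* and *Khk*), and the row of *Mgam* is the palest.

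The animals at the top and bottom of their groups were largely shared by the 6 abundant members. Male WT replicate 2 was the highest of its group for 5 of 6 members and male WT replicate 4 the lowest for 5 of 6. Male LKO replicate 3 was the highest for 5 of 6, female WT replicate 3 for 4 of 6 and female LKO replicate 2 for 4 of 6, and female LKO replicate 1, the deepest library, was the lowest for 4 of 6. Of these 4 highest animals, 3 were among the 4 libraries rich in follicle markers (112 CPM in male WT replicate 2, 68.4 in female WT replicate 3, 185 in female LKO replicate 2), and the fourth, male LKO replicate 3, was not (at most 25.6 CPM in male LKO). Female LKO replicate 3, with the most follicle RNA (355 CPM), was the highest for 1 member and the lowest for 1.

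Without the 4 libraries rich in follicle markers, r of the same 15 pairs was 0.48 to 0.90 over 12 libraries, but 1 of 21 pairs passed after adjustment, and 10 of the 15 had an unadjusted permutation p below 0.05. Without the 5 libraries high in *Car1*, r was 0.52 to 0.90 over 11 libraries, 0 of 21 passed, and 11 of the 15 had an unadjusted permutation p below 0.05. Both sets were left out after the data were seen. The number of within-group arrangements falls from 331776 to 1728 and 576 in these subsets. *Nr1d1*, a repressor of the circadian clock, also ranged from 18.6 to 104 CPM between libraries. Other levels moved with the members between animals of a group, as Pearson r over the 16 group-centred libraries, given as a description over shared libraries and with no test. The summed distal ileum markers had r = 0.88 with *Khk*, 0.76 with *Treh*, 0.73 with *Slc2a5*, 0.68 with *Slc2a2*, 0.57 with *Slc5a1*, 0.52 with *Sis* and 0.25 with *Mgam*. The follicle markers had r = 0.76 with *Slc2a5*, 0.65 with *Khk*, 0.63 with *Treh*, 0.55 with *Slc5a1*, 0.52 with *Sis* and 0.38 with *Slc2a2*, against -0.055 with *Mgam*. *Nr1d1* was positive with all 7 (0.33 to 0.64). The proximal markers had r = 0.21 to 0.56 with 6 members and -0.41 with *Mgam*, and *Car1* had -0.48 to 0.073. The summed colon markers, *Muc2* among them, ran from -0.68 with *Slc5a1* to -0.14 with *Mgam*. The summed hepatocyte markers ran from 0.064 with *Mgam* to 0.71 with *Khk*. That sum was 9.55 to 51.3 CPM, whereas the albumin gene *Alb* was 0.330 to 3.31 CPM. Other genes of the list thus made up most of it, and its r values do not measure liver RNA. The clock gene *Per2* ran from -0.53 with *Slc2a5* to -0.19 with *Sis*. The log2 of total counts ran from -0.47 with *Slc2a5* to -0.29 with *Slc2a2* over 6 members, against 0.17 with *Mgam*. The pan-epithelial markers ran from 0.059 with *Slc2a5* to 0.40 with *Slc2a2*, and the crypt markers from -0.45 with *Slc2a2* to 0.085 with *Mgam*. The part of these in the shared variation was not tested beyond the values above.

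**Figure D5:**
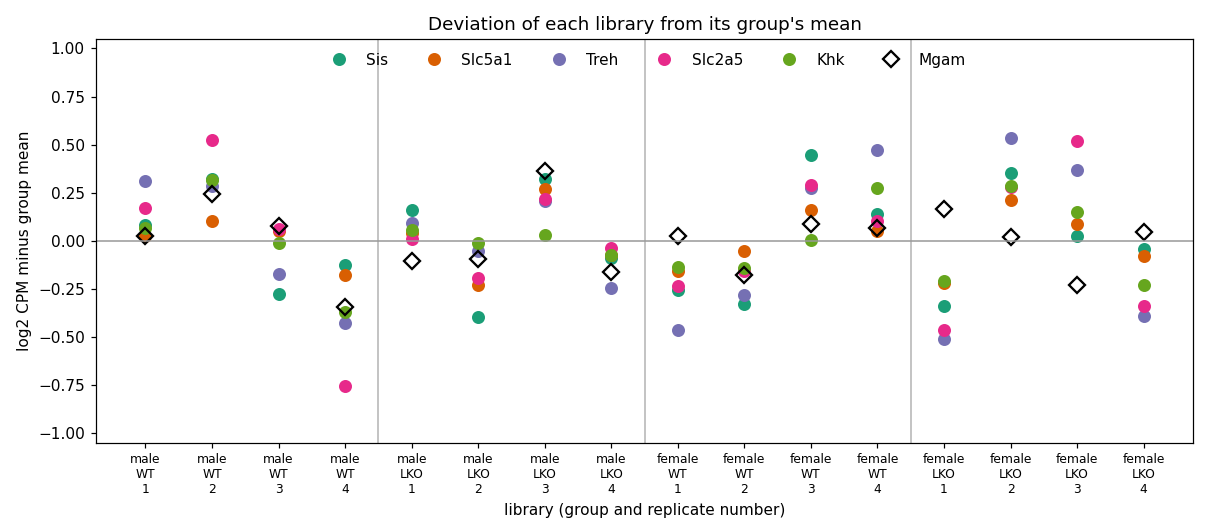
Log2 CPM minus the group mean (y axis) of 6 genes in each of the 16 libraries (x axis, group and replicate number). The points of *Sis*, *Slc5a1*, *Treh*, *Slc2a5* and *Khk* lie on the same side of 0 in 15 of the 16 libraries, for example below 0 in female LKO replicate 1. *Mgam* (open diamonds) lies on the other side of 0 from them in male LKO replicate 1, female WT replicate 1 and female LKO replicates 1, 3 and 4.

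Genes whose pattern was most like each member were taken as the 3 highest Pearson r over the 16 group-centred libraries, out of 14422 genes with at least 1 CPM. For *Treh* these were *Slc15a1* (r = 0.96), the peptide transporter PepT1, *Rsad1* (0.93) and *Slc6a19* (0.93), a neutral amino acid transporter. For *Khk* they were *Pdzk1* (0.95), a brush border scaffold, *Brd9* (0.93) and *Dpep1* (0.92), a dipeptidase. For *Slc5a1* they were *Ogdh* (0.93), *Dpp4* (0.92), a brush border peptidase, and *Slc52a3* (0.92), a riboflavin transporter. For *Sis* they were *Tesk2* (0.92), *Ubxn2a* (0.86) and *Dpp4* (0.86). For *Slc2a5* they were *Slc5a4a* (0.91), *Pik3ap1* (0.91) and *Slc15a1* (0.91). *Mgam* shared none of these, its nearest genes being *Osbpl9* (0.87), *Mrps35* (0.81) and *Cyp3a13* (0.79). For the low *Slc2a2* they were *Reg1* (0.88), *Chmp4b* (0.87) and *Nop9* (0.86). These are the extremes of many genes and carry no test.

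Among 16 other sugar transporters, all of which were tested, 1 passed for genotype averaged over the sexes. *Slc5a4a*, a relative of SGLT1 in the same gene family, fell in LKO (0.147% of all genes tested passed in this direction), with an estimate of -2.04 on the log2 scale (SE 0.38), and its adjusted p was 0.0458 under edgeR. Male values were 7.78, 10.1, 4.61 and 1.44 CPM in WT and 0.814, 0.658, 2.45 and 0.880 CPM in LKO. Female values were 4.25, 4.57, 7.02 and 6.42 CPM in WT and 1.02, 2.44, 2.30 and 0.956 CPM in LKO. The female groups did not overlap, and in males WT replicate 4 lay inside the LKO range. Within a sex it did not pass (log2 -2.31, adjusted p 0.715 in males, and -1.80, adjusted p 0.108 in females), and the averaged call was near the threshold: over 29 alternatives the log2 fold change stayed between -2.26 and -1.63, and 10 of them passed (DESeq2 adjusted p 2.79e-04), with adjusted p up to 0.507 when sets of neighbouring title numbers were a factor. Leaving out any single library other than male WT replicate 4 or male LKO replicate 3 lost the call.

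Its neighbouring copy *Slc5a4b* stood at 1.74 CPM in male WT, 1.38 in male LKO, 3.26 in female WT and 1.65 in female LKO, with a log2 difference of -0.71 (SE 0.25, adjusted p 0.271). Since reads with several mapping positions were dropped, the counts of both copies are uncertain. Of the other 15 transporters, 11 had estimates below 0 and 4 above 0.

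In the other sugar lists none of the genes passed for genotype in either sex or averaged over the sexes: 0 of 11 genes that convert fructose and galactose, 0 of 7 of glucose release and gluconeogenesis, 0 of 17 of glycolysis and 0 of 8 tested of the carbohydrate response. The smallest p-values of the averaged effect in each list were those of *Galm*, the galactose mutarotase (log2 -0.18, adjusted p 0.125), *Pfkp*, the platelet-type phosphofructokinase (0.18, adjusted p 0.0968), *Pck2* (0.13, adjusted p 0.317) and *Insr*, the insulin receptor (-0.18, adjusted p 0.263), none of which passed. Among 16 other brush border hydrolases and villus genes tested and 15 intestinal transcription factors, 0 passed for genotype. The smallest p-values there were those of *Enpep* (-0.30, adjusted p 0.0679) and *Isx* (-0.20, adjusted p 0.174).

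Between the sexes, several enzymes downstream of these transporters differed. Of 17 glycolysis genes 9 were higher in males and 1 lower, where 5.61% and 5.44% of all genes were. *Ldha*, lactate dehydrogenase, was 1.28-fold higher in males (log2 0.36, SE 0.060, edgeR adjusted p 0.00258), *Pkm*, pyruvate kinase, 1.25-fold (adjusted p 0.00258) and *Eno1*, enolase, 1.25-fold (adjusted p 0.00963), followed by *Tpi1* (1.18-fold, adjusted p 0.00611) and *Pfkp* (1.14-fold, adjusted p 0.0109). The gene lower in males was *Pfkm*, muscle phosphofructokinase (log2 -0.21, adjusted p 0.0343). Within the glycolysis list, group means were only 2.84 to 4.185 CPM for *Gapdh* and 10.6 to 13.6 CPM for *Pgam1*. Since reads with several mapping positions were dropped, counts of glycolysis genes with near-identical copies elsewhere in the genome are uncertain. Among the genes that convert fructose and galactose, *Tkfc*, which phosphorylates glyceraldehyde, was higher in males (log2 0.19, edgeR adjusted p 0.0270), as was *Pgm1*, a phosphoglucomutase (0.25, adjusted p 0.0375). Of 7 genes of gluconeogenesis 1 was lower in males, *Pck2* (-0.22, adjusted p 0.0135).

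Markers of other cells differed by sex as well, where 5.61% of all genes were higher in males and 5.44% lower. Of 6 smooth muscle markers 5 were lower in males and 0 higher (*Acta2*, *Tagln*, *Des*, *Cnn1* and *Myh11*, log2 -0.45 to -0.30), with summed levels of 2766 to 3597 CPM in males and 3523 to 5421 CPM in females. Of 7 pan-epithelial markers 3 were higher in males and 0 lower (*Krt20*, log2 0.32, *Epcam*, 0.14, and *Vil1*, 0.16), with summed levels of 16280.3 to 18072 CPM in males and 13624 to 16619 CPM in females. Of the 15 intestinal transcription factors 1, *Hnf4a*, was higher in males (0.16, adjusted p 0.0126), and of the 16 other villus genes tested 2 were, *Vil1* and *Ezr* (0.16 and 0.27, adjusted p 0.0435 and 0.0196). Of 5 Paneth markers 2 were lower in males (*Ang4*, log2 -0.84, and *Itln1*, -0.42) and of 5 T cell markers tested 1 (*Cd4*, -0.40), while 1 of 6 goblet cell markers (*Agr2*, 0.23) and 1 of 6 crypt markers (*Mki67*, 0.23) were higher. Given the shares over all genes, a count of 1 in so short a list says little about that cell type. The part of tissue composition in the sex differences was not tested. The number of glycolysis genes higher in males was 3 with the title number as a covariate, 3 with sets of neighbouring numbers and 3 without the 5 libraries high in *Car1*, against 9.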

How the data were processed

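Ileal RNA of 16 mice, grouped by the sample titles (4 animals in each of 4 groups), was sequenced as stranded poly(A) libraries. Alignment by the authors was to mm10 (STAR 2.5.2, unique alignments only), and they counted exon reads with HOMER 4.10, condensed to 1 RefSeq transcript per gene. The deposited values are raw counts per gene and were used as they were. The strand option of the counting and the annotation version were not given in the sources used here. The titles carry a separate number for each library and do not say what it identifies. Each library was taken as 1 animal, and on that reading p-values measure the spread between animals. Total counts were 15739601 to 60324336 per library, and the floors of 3 counts cover counting error only, whereas the 95% intervals of fold changes include the spread between animals.

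Genes were filtered with filterByExpr by group and tested with edgeR 4.0.16 (R 4.3.3, TMM scaling, robust quasi-likelihood F-test), within each sex for LKO against WT and over all 16 libraries for the interaction, genotype and sex, with Benjamini-Hochberg adjustment over all genes tested and a threshold of 0.05. The SE is the log2 fold change divided by the square root of F. Levels per length used the exon length of the deposited table. Correlations used log2 CPM (prior count 2) minus the group mean, with 100000 permutations within groups. DESeq2 1.42.0, other scalings, filters, covariates, thinning of the deepest library and leaving out each library were alternatives. Libraries were also left out for B cell follicle markers summing above 60 CPM or *Car1* above 100 CPM, both chosen after the data were seen. On simulated counts the tests recovered 79% to 99% of 2-fold changes over the 5 comparisons, with 4.33% to 8.25% of calls false. The changed genes there had at least 1 CPM on average, effects of 2-fold or larger and counts drawn independently per gene. These rates therefore do not cover *Slc2a2*, *Lct* or smaller effects such as those estimated for the members.

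The members, gene lists and tests were chosen with earlier results of these data known. The members are found by symbol, and no measured value enters that rule. Named genes were the 8 members in every comparison, up to 5 genes of each related list that passed, by smallest p, or, where none did, 1 or 2 with the smallest p for the averaged genotype, and the 3 genes most like each member. *Pfkm*, *Slc5a4b*, *Bcl6*, *Alb*, *Gapdh* and *Pgam1* were named outside this rule, after their values were seen. Deviations of same-numbered replicates correlated at -0.10 to 0.26. The numbers were not used as pairs, although a pairing is not excluded. Promoter sequences are those of RefSeq for GRCm38.p6. Some results of the fructose and galactose list are not reported here.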

Additional observations from a re-analysis of the deposited data

Results flagged for a closer look

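Over the 8 genes and 4 groups, 32 sets of 4 libraries were checked for a value far from the others, and 2 stood out, where chance gives about 1 in 20. *Mgam* in male LKO had 1049.7 CPM in replicate 3, against 732 to 766 CPM in the other 3 animals. The same animal was the highest of its group for 5 of the 6 abundant members. *Slc2a2* in female LKO had 1.28 CPM (21 counts) in replicate 2, against 0.106 to 0.113 CPM in the others. That animal was the highest of its group for 4 of the 6 abundant members, and its follicle markers summed to 185 CPM.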

How the results depend on the processing

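No member passed the threshold for genotype or for its interaction with sex under any alternative run. For sex, 1 member passed with DESeq2, 1 with dispersion without robust fitting, 1 without the 5 libraries high in *Car1* and 0 to 1 when each library was left out (*Mgam* in each case), and 1 without the 4 follicle-rich libraries (*Slc5a1*, adjusted p 0.0496). Of 21 pairs of members, 15 were correlated past the threshold, 9 without centring within groups, 1 without the follicle-rich libraries, 0 without those high in *Car1* and 11 to 16 when each library was left out. Of the members' log2 fold changes under the alternatives, 746 kept their direction and their side of the threshold, 6 crossed it and 88 changed sign, none of the latter past the threshold. The values that changed sign follow as log2 fold changes, and the cause was not tested. The title number as a linear covariate gave *Sis* 0.10, *Mgam* 0.038, *Treh* 0.20, *Slc5a1* 0.069, *Slc2a5* 0.061 and *Khk* 0.066 for LKO against WT in males, and *Slc5a1* -0.068 for LKO against WT in females, and *Slc2a2* -0.82 for the interaction, and *Slc2a2* -0.19 for sex. Leaving out the 4 follicle-rich libraries gave *Sis* 0.055, *Slc5a1* 0.00056, *Slc2a5* 0.047 and *Khk* 0.013 for LKO against WT in males, and *Slc5a1* -0.079 for LKO against WT in females, and *Treh* 0.42, *Slc5a1* 0.073 and *Khk* 0.34 for the interaction, and *Treh* 0.039 for sex. Upper quartile scaling gave *Treh* 0.0015 for LKO against WT in females. Leaving out the 5 libraries high in *Car1* gave *Treh* 0.012 and *Slc5a1* -0.029 for LKO against WT in females, and *Slc5a1* 0.016 and *Slc2a2* -0.41 for the interaction, and *Slc2a2* 0.16 for genotype averaged over the sexes. DESeq2 gave *Slc2a2* -0.073 for the interaction, and *Slc2a2* 0.079 for genotype averaged over the sexes. The replicate number as a block gave *Khk* 0.016 for the interaction, and *Slc2a2* 0.052 for genotype averaged over the sexes. The set of neighbouring title numbers as a factor gave *Treh* 0.26, *Slc5a1* 0.10, *Slc2a2* -0.75 and *Khk* 0.20 for the interaction, and *Slc5a1* 0.033 for genotype averaged over the sexes, and *Sis* -0.10 and *Slc2a2* -0.71 for sex. No filter on low counts gave *Slc2a2* 0.0029 for genotype averaged over the sexes. Thinning the deepest library to the median depth gave *Slc2a2* 0.057 for genotype averaged over the sexes. Leaving out each library in turn gave ranges that crossed 0, in males *Sis* -0.18 to 0.055, *Slc5a1* -0.13 to 0.039, *Slc2a5* -0.34 to 0.047 and *Khk* -0.22 to 0.013, in females *Treh* -0.21 to 0.15, *Slc5a1* -0.049 to 0.093 and *Khk* -0.20 to 0.0018, for the interaction *Treh* -0.28 to 0.085, *Slc5a1* -0.16 to 0.010, *Slc2a2* -0.74 to 1.71 and *Khk* -0.12 to 0.11, averaged over the sexes *Treh* -0.17 to 0.00037, *Slc5a1* -0.050 to 0.024 and *Slc2a2* -0.57 to 0.34, for sex *Slc2a2* -0.0061 to 0.97. Pearson r with *Mgam*, which passed for no pair over all libraries, became -0.0067 for *Treh*, -0.059 for *Slc2a5* and -0.032 for *Khk* without the libraries high in *Car1*, and ran from -0.0053 to 0.65 for *Slc2a5* when each library was left out. In males every WT title number is lower than every LKO number, so this covariate and genotype cannot be told apart fully. The replicate numbers showed no clear pairing of animals, although a pairing is not excluded. Of 16 libraries 6 correlated best with a library of their own number (2 of 8 in males, 4 of 8 in females). With the number as a block 0 members passed in each comparison, while over all genes 16, 15, 0, 16 and 1699 passed for LKO against WT in males, in females, the interaction, the averaged genotype and sex, against 8, 6, 0, 42 and 1723. In the same order, DESeq2 called 63, 154 and 223 genes in the 3 genotype comparisons, the title number as covariate left 3, 6 and 2, and 326 for sex, and the set of numbers left 0 for the averaged genotype and 90 for sex. Without the libraries high in *Car1* 36, 4 and 29 genes passed for genotype and 666 for sex, and without the follicle-rich libraries 10, 2 and 5, and 897. Low counts limit what can be said of *Slc2a2* and *Lct*, with at most 21 and 12 counts in a library.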
